A study of Mus musculus with 6 samples.

Results

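Interferon-stimulated antiviral effectors were followed in osteoclast-forming mouse macrophages as a set of 38 genes, taken by symbol out of the 23282 gene entries of each count table. The set holds effectors outside the IFIT, OAS, GBP, Schlafen, IRF, STAT and TRIM families, and all 38 symbols were found. The cells were RAW 264.7, a mouse macrophage line from a virus-induced tumour that can be driven to form bone-resorbing osteoclasts, and every sample was taken on day 5 of osteoclast differentiation. The tested group was marked CPN for treatment, in a series titled for the chaperonin of 60 kDa, and the other group was the control. Each group had 3 samples. The labels gave no genotype, strain or age, and neither the source, the dose nor the time of addition of the chaperonin. All samples come from 1 cell line, and nothing in the labels says that they were separate cultures. The p-values therefore cover sample-to-sample spread alone, and that spread may be technical.

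Type I interferons bind a surface receptor whose kinases activate transcription factors in the cytoplasm. These enter the nucleus and switch on genes that carry an interferon-stimulated response element (ISRE) near their start. The products act at many steps of infection: they block viral entry and budding, degrade or edit viral RNA, deplete nucleotides, and modify proteins with ISG15 or ADP-ribose. Macrophages carry much of this program, and in osteoclast precursors interferon is known as a brake on differentiation.

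Of the 38 genes, 37 could be tested, of which 17 were higher in CPN cells, 1 was lower and 19 did not pass. Higher genes included the ubiquitin-like modifier Isg15, the helicase gene Ddx60, the receptor transporter gene Rtp4 and Ifi44, whereas Ifi27l2a was lower. The calls are from edgeR's quasi-likelihood test at an adjusted p of 0.05 over 11092 genes, where 7.62% of all genes were higher and 6.39% were lower. The median log2 fold change of the 37 tested effectors was 1.27, against -0.0079 over all tested genes. Of the 17 genes that rose, 16 rose at least 2-fold, where 5.55% of all tested genes did. All 3 CPN values lay above all 3 control values for 23 of the 37, against 16.9% of all tested genes, and below them for 2, against 15.7%. Leaving out each library in turn left between 12 and 18 effectors higher, and 11 of the 17 passed in each of these 6 fits. The share of all genes that was higher ran from 4.58% without control 3, where 12 effectors were higher, to 9.86% without control 2, where 18 were. Lower effectors then numbered 1, except that there were 3 without CPN 3.

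**Figure D1:**
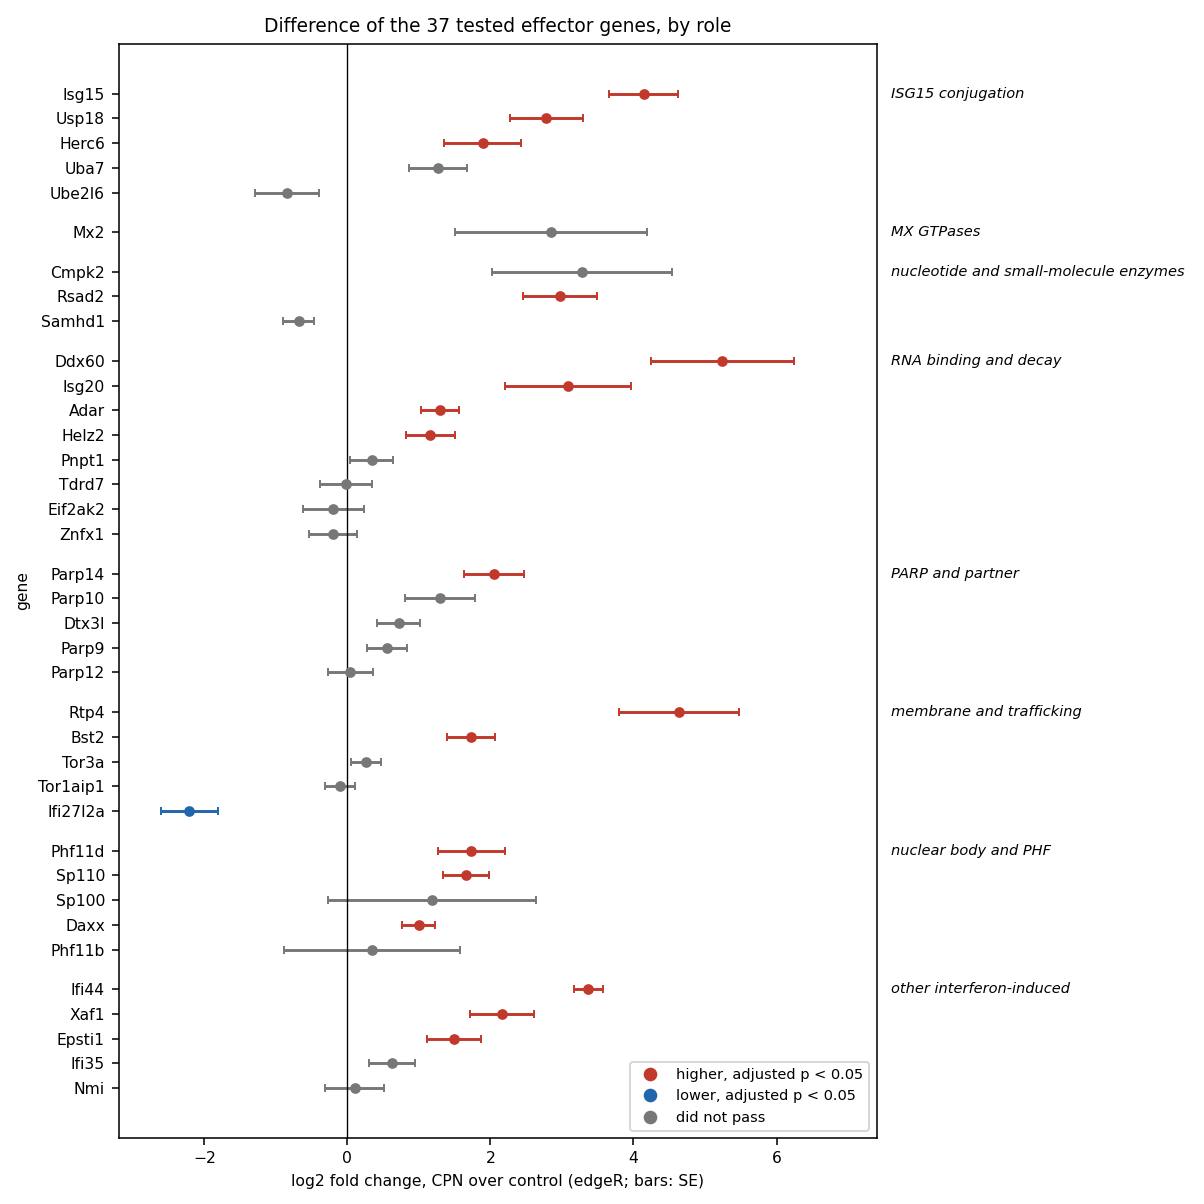
Log2 fold change of CPN over control for the 37 tested effectors, grouped by role, with bars for the SE and colour for the edgeR call (3 samples per group). The 17 genes that rose spread over all roles except the MX GTPases, from 0.996 for Daxx to 5.24 for Ddx60, and Ifi27l2a at -2.21 is the 1 gene that fell.

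Total counts were between 7957228 and 9713938 per library, and 3 counts correspond to between 0.2943 and 0.3929 CPM (counts scaled to a common library size after TMM, the scale of every level given here). The libraries differed in sparseness: among 707 genes with a mean of 6 to 12 counts, between 14.0% (CPN 1) and 41.16% (CPN 2) of values were 0, with 23.76% in control 3. Without both CPN 1 and control 3, the least sparse libraries, 5 effectors were higher and 1 was lower, where 2.43% and 1.54% of all genes were. The 5 were Isg15, Usp18, Rsad2, Adar and Ifi44. Ddx60, Rtp4, Parp14, Bst2, Sp110 and Xaf1, which passed with any 1 library left out, did not pass there (edgeR adjusted p up to 0.1216). All 7 macrophage markers could be tested (summed level 2250 to 2880 CPM in CPN, 1870 to 2390 CPM in control). Of these Adgre1, Itgam and Fcgr1 were higher in CPN (edgeR log2 fold changes 1.79, 1.98 and 3.82), and 4, including Cd68 and Ptprc, did not pass. Of 6 tested osteoclast markers 5 were lower in CPN, and Mmp9 was higher (edgeR log2 fold change 1.56). The 7 osteoclast markers summed to 948 to 1500 CPM in CPN and 3240 to 3500 CPM in control. Of 5 granulocyte markers, 4 were found in the count tables. S100a8 passed and rose, and the list summed to 18.0 to 34.6 CPM in CPN and at most 0.117 CPM in control, while Elane was at 0 and S100a9 and Mpo averaged at most 0.240 CPM in either group. Of 5 stromal markers, Dcn passed and rose, and the list summed to 12.2 to 18.7 CPM in CPN and at most 4.67 CPM in control, while the other 4 were too low to test. S100a8 and Dcn had no control library over the low-count filter's 1.2 CPM, so that they were tested only through CPN libraries. Lum had 1.32, 8.25 and 0 CPM in CPN 1 to 3 and 0 in every control, the mean of Col1a1 was 1.20 CPM in CPN against 1.48 CPM in control, and Col1a2 and Pdgfra averaged at most 0.0799 CPM. Whether any granulocytes or stromal cells were present in these samples of 1 cell line, and their part in the effector differences, was not tested. Siglech, which marks the plasmacytoid dendritic cells that make most interferon, was at 0 in every library. B cell, T cell, NK cell, plasmacytoid and epithelial marker lists summed to at most 3.47 CPM in any library. In bulk samples like these, fewer cells of a type and less RNA per cell cannot be told apart.

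Promoter sequence was at hand for 29 of the 38 genes, as RefSeq windows on build GRCm38.p6 reaching 250 bases before to 50 bases after each annotated start. The ISRE core was searched as GAAANNGAAA, a pair of GAAA half-sites with any bases at N, and a longer form as GAAANNGAAACT, both on both strands, so that each longer match also holds a core match. The core was present for 7 of the 29 genes and the longer form for 3 of them, against 3.99% and 0.303% of 27025 genes with a window. Of the 8482 genes with a window that were tested, as all 29 were, 3.67% had the core and 0.389% the longer form. Among these 29, the core was found for 4 of the 14 that rose and for 3 of the 15 that did not pass. The STAT-type element known as GAS, searched as TTCNNNGAA, was found for 6 of the 29, against 9.55% of genes and 8.16% of tested genes. A match describes letters, not binding. The 250 bases before the listed start, which for Ddx60 and Phf11b is not the outer edge of the gene, are printed for 7 genes. They are the 4 genes that rose with a core match, the neighbours Phf11b and Phf11d, and Ifi44. Phf11b has a core match and did not pass, while Phf11d has none and rose. The difference between these neighbours was not tested. Ifi44 had the smallest p of the set and no exact match in its window. The search took exact letters only, so that near matches are not marked. Capitals mark core matches, and overlapping matches run together.
Isg15 (chr4:156200819-156201068, minus strand): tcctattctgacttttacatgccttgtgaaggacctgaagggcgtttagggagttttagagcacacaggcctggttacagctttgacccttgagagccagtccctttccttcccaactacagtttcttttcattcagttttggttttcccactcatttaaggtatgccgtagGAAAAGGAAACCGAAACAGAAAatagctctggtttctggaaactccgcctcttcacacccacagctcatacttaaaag
Rsad2 (chr12:26456453-26456702, minus strand): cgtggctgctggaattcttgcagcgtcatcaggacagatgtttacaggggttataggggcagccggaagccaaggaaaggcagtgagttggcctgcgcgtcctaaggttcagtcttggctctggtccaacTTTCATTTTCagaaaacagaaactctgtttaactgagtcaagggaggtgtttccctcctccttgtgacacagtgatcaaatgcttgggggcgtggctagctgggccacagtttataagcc
Ddx60 (chr8:61927837-61928086, plus strand): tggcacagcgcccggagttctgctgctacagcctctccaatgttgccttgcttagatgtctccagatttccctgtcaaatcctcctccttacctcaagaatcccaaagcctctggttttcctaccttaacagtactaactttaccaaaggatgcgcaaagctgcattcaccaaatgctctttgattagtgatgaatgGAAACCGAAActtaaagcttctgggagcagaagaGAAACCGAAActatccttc
Bst2 (chr8:71537473-71537722, minus strand): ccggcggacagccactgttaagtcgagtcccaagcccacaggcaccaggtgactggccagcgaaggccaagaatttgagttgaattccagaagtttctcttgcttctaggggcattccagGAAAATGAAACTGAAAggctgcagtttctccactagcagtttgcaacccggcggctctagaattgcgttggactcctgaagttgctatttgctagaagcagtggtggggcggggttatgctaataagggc
Phf11b (chr14:59341331-59341580, minus strand): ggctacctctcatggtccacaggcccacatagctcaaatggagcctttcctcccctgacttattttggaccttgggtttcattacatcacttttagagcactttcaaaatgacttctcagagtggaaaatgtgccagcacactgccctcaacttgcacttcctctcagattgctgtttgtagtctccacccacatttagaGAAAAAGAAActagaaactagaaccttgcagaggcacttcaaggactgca
Phf11d (chr14:59365491-59365740, minus strand): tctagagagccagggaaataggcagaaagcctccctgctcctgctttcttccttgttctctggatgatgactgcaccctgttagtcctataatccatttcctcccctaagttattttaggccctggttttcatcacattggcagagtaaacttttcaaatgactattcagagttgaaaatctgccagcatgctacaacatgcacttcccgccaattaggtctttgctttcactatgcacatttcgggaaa
Ifi44 (chr3:151749911-151750160, minus strand): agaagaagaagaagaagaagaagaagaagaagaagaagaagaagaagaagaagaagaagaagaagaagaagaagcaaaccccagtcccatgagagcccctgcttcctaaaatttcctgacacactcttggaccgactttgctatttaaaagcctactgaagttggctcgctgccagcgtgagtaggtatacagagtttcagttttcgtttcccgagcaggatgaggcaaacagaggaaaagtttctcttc

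The core matches of Isg15 begin 78, 72 and 66 bases before the start and form 1 continuous run. Ddx60 has its matches at 53 and 19 bases before the listed start, both in the longer form, and the second runs across the outer edge of the gene. Bst2 has overlapping matches at 130 and 124 bases, the first in the longer form, next to a GAS match at 136 bases. The Rsad2 match lies on the strand opposite to the gene, 120 bases before the start. Among the genes that did not pass, Phf11b has the longer form 50 bases before its listed start, which is inside the annotated gene. Tdrd7 has a core match 191 bases before its second listed start. Eif2ak2 has a core match after the start, 18 bases past the first transcribed base.

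**Figure D2:**
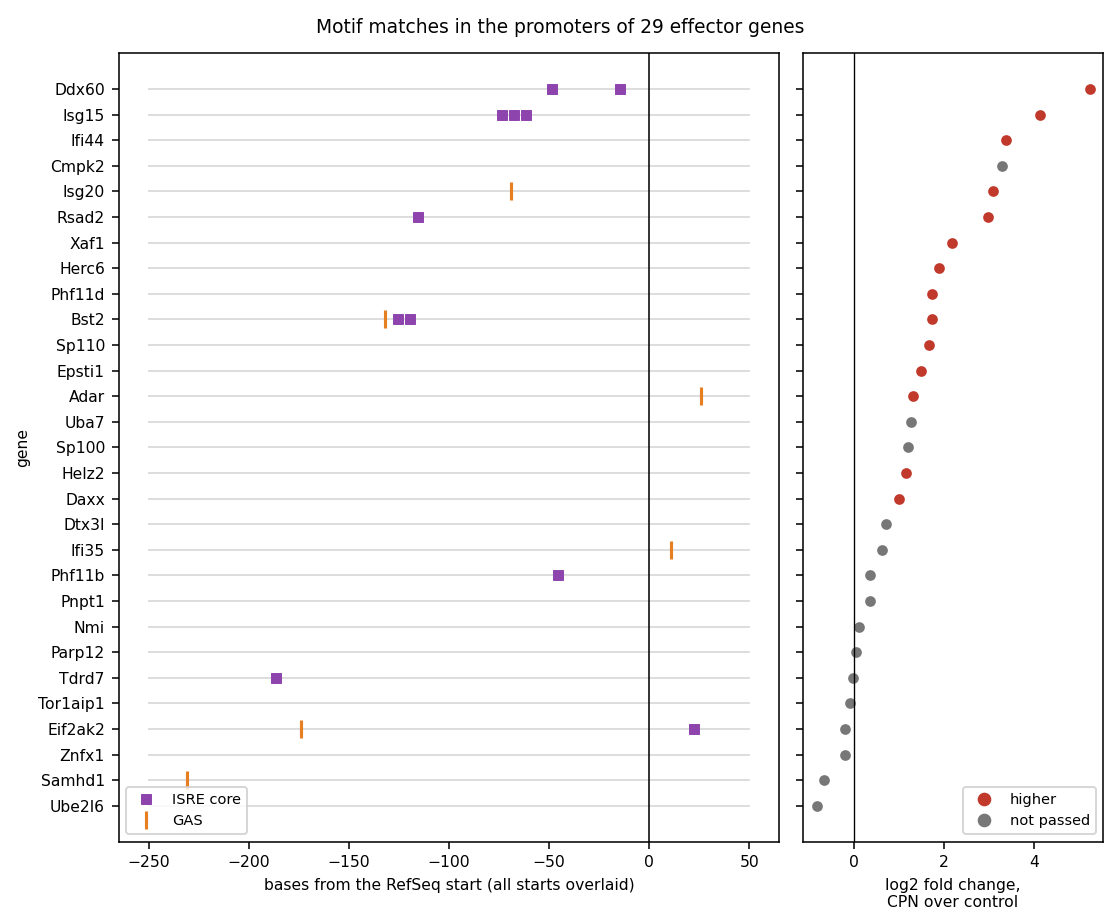
Positions of ISRE core and GAS matches (left, in bases from the RefSeq start) and log2 fold change of CPN over control (right) for the 29 effectors with a promoter window, in order of fold change. Core matches occur in 7 genes, including Ddx60 and Isg15 at the top, and also in Tdrd7 and Eif2ak2, whose log2 fold changes were -0.02 and -0.20. Ifi44, Cmpk2 and Isg20, next in order, have no core match. Rtp4, which rose more than Isg15, has no window and is not shown.

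The ISG15 system attaches a ubiquitin-like protein to new proteins and removes it again, through an activating enzyme (Uba7), a conjugating enzyme (Ube2l6), a ligase (Herc6 in mouse) and a protease (Usp18). In CPN cells the modifier, the protease and the ligase rose, whereas the activating and conjugating enzymes did not pass. Isg15 (chromosome 4, 156199424 to 156200818) had 49.8, 81.5 and 25.6 CPM in CPN 1 to 3, against 2.55, 4.55 and 1.75 CPM in control 1 to 3. Its lowest CPN value was above its highest control value, and the log2 fold change was 4.14 ± 0.484 (SE, n = 3 per group, edgeR adjusted p = 0.000115). Usp18, which also shuts down interferon receptor signalling (chromosome 6, 121245906 to 121270917), had 20.9, 45.7 and 34.0 CPM in CPN, against 4.81, 8.15 and 1.64 CPM in control (edgeR log2 fold change 2.78 ± 0.516, adjusted p = 0.00306). The groups did not overlap, and the log2 fold change was 3.38 without control 2, the highest control. Herc6 had 7.92, 18.3 and 12.5 CPM in CPN, against 4.02, 3.47 and 2.92 CPM in control (edgeR log2 fold change 1.89 ± 0.537, adjusted p = 0.0332). Its groups were apart, but its call ended without CPN 2, CPN 3, control 1 or control 3 (edgeR adjusted p up to 0.173), and in limma-voom (adjusted p = 0.0697).

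Uba7 averaged 24.3 ± 10.8 CPM in CPN and 10.1 ± 3.08 CPM in control (SD, n = 3 each) without overlap, at edgeR adjusted p = 0.056. It passed without control 2 (edgeR adjusted p = 0.0205), in DESeq2 (adjusted p = 0.0317) and with no low-count filter (edgeR adjusted p = 0.0274). Ube2l6 went the other way by its values, with 6.84, 14.0 and 8.44 CPM in CPN, against 22.6, 9.82 and 20.1 CPM in control. These overlap, and the log2 fold change of -0.84 ± 0.449 did not pass (edgeR adjusted p = 0.265), nor did it in any alternative. Of 12 other ubiquitin-like conjugation genes, used as a list of general enzymes and modifiers, Ufm1 rose (edgeR log2 fold change 0.71, adjusted p = 0.0434) and 11 did not pass, with a median log2 fold change of 0.14.

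Enzymes that act on nucleotides showed a rise of Rsad2, while its neighbour Cmpk2 did not pass and Samhd1 had lower values. Rsad2 encodes viperin, which makes a chain-terminating nucleotide (chromosome 12, 26442743 to 26456452). It had 25.3, 28.2 and 19.1 CPM in CPN, against 3.14, 4.91 and 1.17 CPM in control (edgeR log2 fold change 2.97 ± 0.513, adjusted p = 0.00186). The groups were well apart in all libraries. Cmpk2, a mitochondrial nucleotide kinase whose product feeds viperin, lies 12.7 kb away and is read in the opposite direction. It had 6.72, 3.54 and 9.06 CPM in CPN, against 0.0981, 0 and 1.87 CPM in control (edgeR log2 fold change 3.28 ± 1.25, adjusted p = 0.109). The groups did not overlap, and 16 of its 17 control counts lay in control 3. Without that library the ratio of its 156 CPN counts to 1 control count was 120 after scaling, with an exact 95% counting interval of 21.3 to 4785, and it passed (edgeR adjusted p = 0.022). It also passed in DESeq2 (adjusted p = 0.0256) and with no filter (edgeR adjusted p = 0.0396).

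Samhd1, which breaks down the building blocks of DNA, had 78.2, 81.3 and 131.8 CPM in CPN, against 157.6, 159.8 and 149.2 CPM in control. All CPN values lay below all control values, with CPN 3 the nearest, and the log2 fold change was -0.68 ± 0.218 (edgeR adjusted p = 0.0564). It passed as lower without CPN 3 (edgeR log2 fold change -0.96, adjusted p = 0.0121), with library totals alone (edgeR adjusted p = 0.0281), in DESeq2 (adjusted p = 0.0259), in limma-voom (adjusted p = 0.024) and with no filter (edgeR adjusted p = 0.0178).

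Of 8 genes for proteins that bind, edit or degrade RNA, 4 rose and 4 did not pass. Ddx60, a helicase tied to the RNA sensor RIG-I (chromosome 8, 61928073 to 62037704), had 7.68, 7.596 and 18.4 CPM in CPN, against 0.687, 0 and 0.117 CPM in control. It was nearly silent in control, with 8 counts in 3 libraries, and its edgeR log2 fold change was 5.24 ± 1.004 (adjusted p = 0.00378). It was also the 1 tested effector with no control library over the filter's 1.2 CPM. Mx2, Cmpk2, Rtp4 and Sp100 had 1 control library over it, and Isg20 and Phf11b had 2. The filter asked for 3 libraries, so that these too were tested only with the help of CPN libraries. Of the Ddx60 control counts 7 lay in control 1. Without control 1 the ratio of 270 CPN counts to 1 control count was 190 after scaling (exact 95% counting interval 33.8 to 7530). Adar, the enzyme that turns adenosine into inosine in double-stranded RNA (chromosome 3, 89714469 to 89753455), had 87.8, 116.8 and 145.6 CPM in CPN, against 46.3, 62.9 and 33.2 CPM in control. It rose by an edgeR log2 fold change of 1.30 ± 0.266 (adjusted p = 0.00553) without overlap, and passed in each left-out fit.

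Isg20, an RNA exonuclease, had 20.6, 30.9 and 32.5 CPM in CPN, against 0, 8.15 and 1.87 CPM in control (edgeR log2 fold change 3.08 ± 0.882, adjusted p = 0.0341). The groups were apart but the controls spread widely: the log2 fold change was 4.97 without control 2 and 2.48 without control 1. The Isg20 call ended without CPN 1, CPN 2, CPN 3 or control 3 (edgeR adjusted p up to 0.125) and in DESeq2 (adjusted p = 0.207). The fourth gene that rose was Helz2, a helicase and nuclear receptor coactivator, at 37.7 ± 10.3 CPM in CPN and 16.9 ± 6.43 CPM in control (edgeR adjusted p = 0.041), and its call ended without CPN 1, CPN 3, control 1 or control 3 (up to 0.162) and with library totals alone (0.0587).

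The 4 RNA genes that did not pass were Eif2ak2, which encodes the kinase PKR that halts translation, Pnpt1, a mitochondrial exoribonuclease, Znfx1, a helicase that senses double-stranded RNA, and Tdrd7, an RNA granule protein. Their CPN and control values overlapped, and their log2 fold changes lay between -0.20 and 0.34. Znfx1 had 52.0, 54.9 and 140.7 CPM in CPN, against 111.5, 90.4 and 82.2 CPM in control. CPN 3 stood above every control and the other two CPN samples below, so that without CPN 3 its log2 fold change was -0.83 (edgeR adjusted p = 0.0489). Eif2ak2 shares 2041 bases with Gm6548, which had 8319 counts in all libraries against 1140 for Eif2ak2 and did not pass (log2 fold change 0.27), so that a read there could have counted for either gene.

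**Figure D3:**
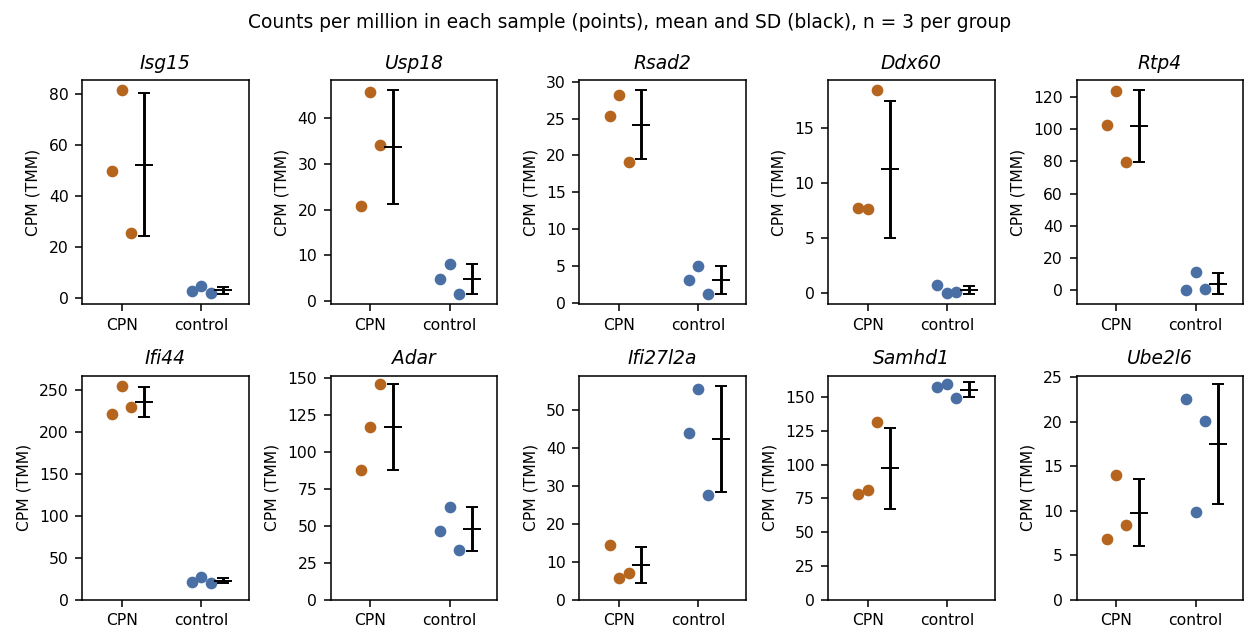
CPM in each sample for 10 effectors on linear axes from about 0, with the mean and SD in black beside the points (n = 3 per group). Isg15, Usp18, Rsad2, Ddx60, Rtp4, Ifi44 and Adar have all CPN points above all control points, Ifi27l2a and Samhd1 have them below, and the points of Ube2l6 overlap.

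PARP proteins attach ADP-ribose to other proteins, and Parp9 works in a complex with the ubiquitin ligase Dtx3l. Of these 5 genes Parp14 rose, and the other 4 did not pass although all 5 log2 fold changes were positive. Parp14 (chromosome 16, 35831892 to 35871518) had 34.4, 26.2 and 38.3 CPM in CPN, against 7.26, 12.7 and 3.86 CPM in control (edgeR log2 fold change 2.06 ± 0.419, adjusted p = 0.00546). It did not overlap and passed in each left-out fit. Parp10 had 13.7, 12.3 and 20.1 CPM in CPN, against 9.81, 4.43 and 4.44 CPM in control, apart but short of the threshold (edgeR log2 fold change 1.30 ± 0.486, adjusted p = 0.102).

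Dtx3l had 26.0, 38.5 and 47.0 CPM in CPN, against 27.9, 20.6 and 19.4 CPM in control (edgeR log2 fold change 0.72 ± 0.298, adjusted p = 0.144). Its lowest CPN value lay under its highest control value. Dtx3l and Parp9 are read outward from 558 shared bases at their starts, and Parp9 had an edgeR log2 fold change of 0.56 ± 0.281 (adjusted p = 0.237) with its groups apart. Parp12 had an edgeR log2 fold change of 0.04 ± 0.309 (adjusted p = 0.955). Parp14 lies in the same region, 55.0 kb from Dtx3l. Of 9 other tested PARP genes, Parp4 rose (edgeR log2 fold change 0.91, adjusted p = 0.0332) and 8 did not pass, with a median of 0.11.

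Genes for membrane and trafficking proteins moved in both directions. Rtp4, a Golgi chaperone for receptors that also curbs viral RNA (chromosome 16, 23520219 to 23614222), had 102.7, 123.4 and 79.3 CPM in CPN, against 0.0981, 11.5 and 0.935 CPM in control. It rose by an edgeR log2 fold change of 4.64 ± 0.836 (adjusted p = 0.00254), with control 2 holding 96 of the control counts. Without control 2 the log2 fold change was 7.69, and without control 1 it was 4.03. Bst2 encodes tetherin, which holds budding virions on the cell surface (chromosome 8, 71534255 to 71537472). It had 34.3, 39.4 and 33.5 CPM in CPN, against 9.42, 15.5 and 7.597 CPM in control (edgeR log2 fold change 1.72 ± 0.336, adjusted p = 0.00416). The CPN values lay close together, all more than the highest control. Tor3a, a torsin ATPase, and Tor1aip1, a torsin activator of the inner nuclear membrane, overlapped between groups and did not pass (log2 fold changes 0.26 and -0.10).

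Ifi27l2a, a small hydrophobic interferon-induced protein, was the effector that fell (chromosome 12, 103433873 to 103443680). It had 14.5, 5.76 and 7.07 CPM in CPN, against 43.9, 55.6 and 27.6 CPM in control, an edgeR log2 fold change of -2.21 ± 0.400 (adjusted p = 0.00259). The groups were apart, and it passed as lower in all 16 alternatives. It shares 6057 bases with Ifi27, a related gene on the opposite strand with 22767 counts against 1370 for Ifi27l2a. Ifi27 moved the other way, at 638 ± 46.1 CPM in CPN and 277 ± 97.6 CPM in control (edgeR log2 fold change 1.20 ± 0.218, adjusted p = 0.00259). The use of strand in counting is not given in the sources used here, and a read from that stretch could have counted for either gene.

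Of 5 nuclear proteins, Sp110, Daxx and Phf11d rose, and Sp100 and Phf11b did not pass. Sp110, a nuclear body protein (chromosome 1, 85570735 to 85610850), had 55.0, 57.5 and 37.8 CPM in CPN, against 10.6, 23.1 and 14.0 CPM in control (edgeR log2 fold change 1.66 ± 0.326, adjusted p = 0.00439). Its groups were apart, though it shares 23360 bases with Sp140 on the other strand, which also rose, to 41.4 ± 11.2 CPM in CPN against 8.12 ± 3.07 CPM in control (edgeR adjusted p = 0.000945). Daxx, a histone chaperone of PML nuclear bodies, had 88.7, 71.6 and 57.9 CPM in CPN, against 37.9, 37.97 and 33.5 CPM in control (edgeR log2 fold change 0.996 ± 0.227, adjusted p = 0.0104). Its controls were tightly grouped below every CPN value, but its call ended without CPN 1 or control 3 (edgeR adjusted p up to 0.0617).

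Phf11d, a PHD finger protein, had 18.1, 20.2 and 13.2 CPM in CPN, against 2.94, 6.23 and 6.31 CPM in control (edgeR log2 fold change 1.73 ± 0.469, adjusted p = 0.026). It did not overlap, and the call ended without CPN 1, CPN 2, control 1 or control 3 (edgeR adjusted p up to 0.104). Its neighbour Phf11b, 6.0 kb away, averaged 2.995 ± 1.604 CPM in CPN and 2.37 ± 2.15 CPM in control with overlap (edgeR adjusted p = 0.903). The Phf11 genes are related copies that may share reads. Sp100 varied more within groups than between them, at 3.48, 0.262 and 5.09 CPM in CPN, against 0.294, 3.59 and 0 CPM in control (edgeR adjusted p = 0.674).

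Among the other interferon-induced genes, Ifi44, Xaf1 and Epsti1 rose, and Ifi35 and Nmi, which encode partner proteins, did not pass. Ifi44 (chromosome 3, 151730922 to 151749910) had 220.8, 254.9 and 229.4 CPM in CPN, against 21.1, 26.7 and 20.3 CPM in control. Both groups were tight, and the log2 fold change of 3.37 ± 0.202 stayed between 3.25 and 3.52 in the alternatives (edgeR adjusted p = 1.4e-06). Xaf1, which promotes cell death by opposing an inhibitor of apoptosis (chromosome 11, 72301461 to 72313733), had 18.0, 21.2 and 16.6 CPM in CPN, against 2.84, 5.51 and 4.09 CPM in control (edgeR log2 fold change 2.17 ± 0.448, adjusted p = 0.00593). Epsti1 had 21.6, 19.9 and 18.2 CPM in CPN, against 6.08, 7.91 and 7.36 CPM in control (edgeR log2 fold change 1.48 ± 0.378, adjusted p = 0.0191). Both were apart, and the Epsti1 call ended without CPN 1, CPN 2, control 1 or control 3 (edgeR adjusted p up to 0.0783). Ifi35 averaged 21.8 ± 2.81 CPM in CPN and 14.2 ± 1.35 CPM in control without overlap (edgeR adjusted p = 0.245), and Nmi had a log2 fold change of 0.10 ± 0.412.

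The MX genes encode dynamin-like GTPases that trap viral particles, and RefSeq annotates both as transcribed pseudogenes on this build. Mx2 had 3.24, 6.42 and 1.61 CPM in CPN, against 0, 1.32 and 0.234 CPM in control, apart but not past the threshold (edgeR log2 fold change 2.85 ± 1.34, adjusted p = 0.20). Of its 13 control counts 11 lay in control 2. Without that library the edgeR log2 fold change was 4.92 (adjusted p = 0.0594), and the ratio of 89 CPN counts to 2 control counts was 34.7 after scaling (exact 95% counting interval 9.33 to 291.2). Mx1 had 0, 4 and 2 counts in CPN 1 to 3 and 0, 0 and 6 counts in control 1 to 3, and was too low to test. A difference in Mx1 was not detectable at this depth.

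**Figure D4:**
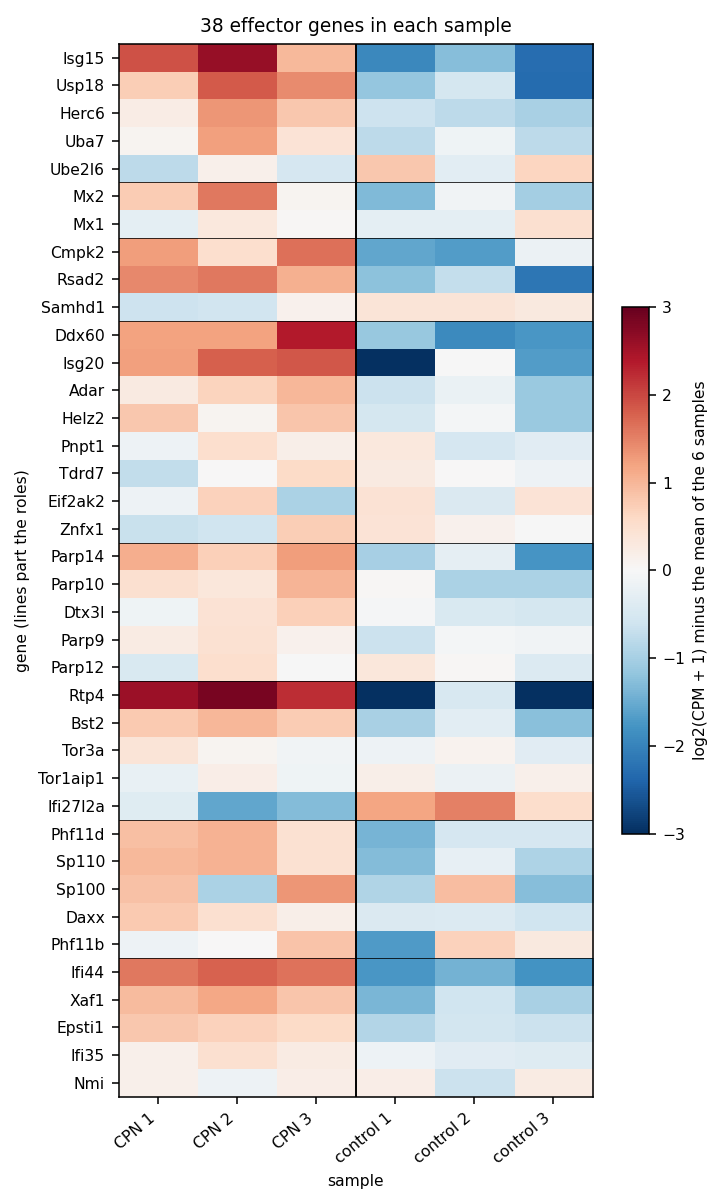
Log2(CPM + 1) of the 38 effectors in each sample after subtracting the mean of the 6 samples, with colours capped at 3 either way and lines between roles. Rows from Isg15, Rsad2, Rtp4 and Ifi44 part CPN from control in all samples, while Sp100, Eif2ak2, Tdrd7 and Nmi do not, and control 2 is the warmest control in many rows.

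Within each group the libraries were not ordered alike for all effectors. Among the controls, control 2 held the highest value for 22 of the 37 tested genes and control 3 for 3, while control 3 held the lowest value for 20. Among the CPN samples, CPN 2 was highest for 19 genes, CPN 3 for 14 and CPN 1 for 4. Without control 2 the median log2 fold change of the tested effectors was 1.57. Summed over the 38 genes, the level was 1430, 1665 and 1594 CPM in CPN 1 to 3, against 920.5, 946.1 and 786.3 CPM in control 1 to 3.

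The upstream pathway was then read from lists of its parts. Of 12 interferon ligand genes, 11 were at 0 in every library and Ifnb1 had 1 count, in CPN 1, so that ligand transcripts were not detectable at this depth on day 5. Of 8 tested receptor and kinase genes, Ifnar2, a chain of the type I receptor, rose to 198.8 ± 21.2 CPM in CPN against 103.8 ± 15.9 CPM in control (edgeR adjusted p = 0.00463). Jak2, a cytoplasmic kinase, rose to 43.2 ± 16.5 CPM in CPN against 11.2 ± 2.40 CPM in control (edgeR adjusted p = 0.00229), and the other 6 did not pass. Among these were the kinases Jak1 and Tyk2, with log2 fold changes of 0.47 and -0.29 (edgeR adjusted p = 0.145 and 0.547). Of 6 transcription factors Irf7, which amplifies the interferon response, rose to 60.7 ± 9.86 CPM in CPN against 5.12 ± 2.16 CPM in control (edgeR adjusted p = 3.6e-05). Stat2 and Irf9, which bind the ISRE together, had positive differences that did not pass: log2 fold changes were 0.84 for Stat2 and 0.73 for Irf9 (edgeR adjusted p = 0.129 and 0.134). Of 5 signalling inhibitors, Socs3 and Ptpn2 rose, Pias1 and Ptpn6 fell (log2 fold changes -0.98 and -1.11) and Socs1 did not pass.

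Interferon-stimulated genes of the other families served as the closest comparison. Of 22 tested, 17 rose and none fell, or 77.3%, against 45.9% of the 37 effectors, and the medians were 2.34 for the other families and 1.27 for the effectors. The difference between these shares was not tested, and both lists were chosen with earlier results known. In the list of other families, Gbp3, Gbp7 and Ifit3 had no control library over the filter's 1.2 CPM. They were tested only through CPN libraries, and the 77.3% includes Gbp3 and Gbp7. The rises of other families included Ifitm3, which blocks viral entry, at 1649 ± 163 CPM in CPN and 536 ± 158 CPM in control (edgeR adjusted p = 0.000167).

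**Figure D5:**
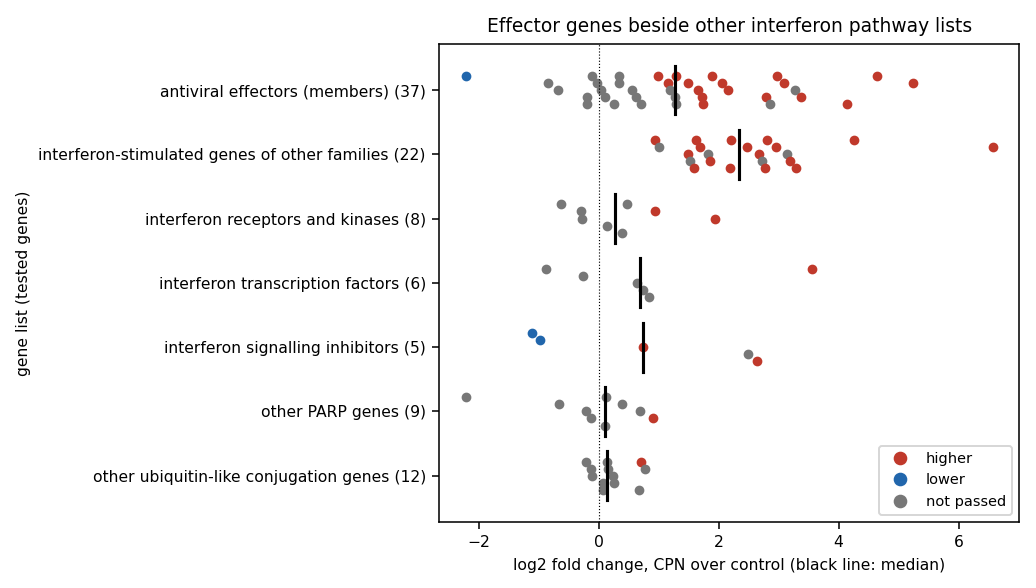
Log2 fold change of CPN over control for each tested gene of 7 lists, coloured by edgeR call, with a black line at each median. The effectors spread from -2.21 to 5.24, the 22 genes of other interferon-stimulated families all lie above 0, and the medians of the other PARP and ubiquitin-like lists are 0.11 and 0.14.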

How the data were processed

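Per the labels' protocols, total RNA harvested with Trizol went into Lexogen QuantSeq libraries, which read transcripts near their 3′ ends. What the authors deposited are raw counts per gene symbol, 1 table per sample. Bowtie2, bedtools and build mm10 are named in the submitters' processing notes, with no versions. How strand, duplicates and gene models were handled is not given in the sources used here. No length scaling was applied, and levels are not compared between genes.

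Groups came from the sample titles. The test was run with edgeR 4.0.16 (R 4.3.3) and used TMM scaling, filterByExpr (minimum count 10, minimum total 15), the quasi-likelihood test of CPN against control, and Benjamini-Hochberg adjustment over 11092 genes at 0.05. Replicates had a common biological coefficient of variation of 0.355. Each SE is the log2 fold change divided by the square root of F, and other errors are SDs over 3 samples. Counting intervals cover counting error only. Replicate pairs differed by more than sampling noise (chi-square per degree of freedom at least 16.4). Alternatives used DESeq2 1.42.0 and limma 3.58.1, among others. In counts simulated for this comparison over 10856 genes, the calls held 21 of the 100 genes given a 2-fold change, 66 of the 96 given a 4-fold change, and 4 of the 10660 left alone.

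The members, lists and alternatives were chosen with earlier results of these data known. All 38 members are named; samples are given for up to 3 genes of smallest p per role, genes that fell or were too low to test, and some others chosen after their values were seen. Positions and promoters are from RefSeq (GRCm38.p6).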

Additional observations from a re-analysis of the deposited data

How the results depend on the processing

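The number of effectors higher in CPN was 17 and moved to 11 in a test against a fold of 1.5 and to 5 without both control 3 and CPN 1. The share of all genes that was higher moved alongside, at 3.82% and 2.43% in these, against 7.62%. It stayed within 1.5 times of 17 in the other alternatives, and leaving out each library gave 12 to 18. The number lower was 1, and 2 with library totals alone, DESeq2, limma-voom or no filter, the second gene being Samhd1; leaving out each library gave 1 to 3. The median log2 fold change of the tested effectors was 1.10 to 1.57 with each library left out. With the replicate number as a block 15 effectors were higher, beside 6.74% of all genes, and 1 was lower, the calls of Herc6 and Helz2 being lost. Same-numbered samples did not deviate together (correlations -0.051, 0.02 and 0.028). With 3 samples per group this cannot exclude that the numbers pair the samples, and the labels do not say.

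Changes of sign touched genes near 0 that did not pass. With library totals alone Parp12 was at -0.086 and Nmi at -0.026, and Parp12 was at -0.0031 in limma-voom. Without both control 3 and CPN 1, Eif2ak2 was at 0.013, Tdrd7 at 0.17 and Tor1aip1 at 0.033. With each library left out, the range was -0.83 to 0.045 for Znfx1, -0.39 to 0.27 for Tdrd7, -0.23 to 0.25 for Parp12, -0.73 to 0.13 for Eif2ak2, -0.25 to 1.05 for Phf11b and -0.14 to 0.25 for Nmi. Library totals alone moved the median of all genes to -0.129. The causes were not tested. Few control counts lie behind the values of Ddx60 (8), Mx2 (13), Cmpk2 (17), Sp100 (33) and Phf11b (60). The same holds for Isg15 (79), Rsad2 (83), Isg20 (84), Herc6 (95) and Rtp4 (105), and Mx1 had 12 counts in all libraries.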

Other observations

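Relatives of the effectors, looked at after their values were seen, gave a few further values. Ifi44l, a relative of Ifi44, had 184 counts in CPN and 1 in control, a ratio of 208 after scaling with an exact 95% counting interval of 36.8 to 8240, and it passed (edgeR adjusted p = 0.00192). With no control library over the filter's 1.2 CPM, Ifi44l was tested only through CPN libraries. Phf11a, a further Phf11 copy, averaged 2.04 ± 0.406 CPM in CPN and 0.185 ± 0.180 CPM in control without overlap and did not pass (edgeR adjusted p = 0.151), while Phf11c averaged 4.24 ± 0.301 CPM in CPN and 3.58 ± 1.17 CPM in control (edgeR adjusted p = 0.889). Ifi27l2b, a relative of Ifi27l2a, was at 0 in 5 libraries and at 3.41 CPM in CPN 2.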
